A study of Mus musculus with 6 samples.

Results

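The mitochondrial and basal antioxidant enzymes were followed through 10 genes of WT MEFs (mouse embryonic fibroblasts) treated with small molecules that act on mitofusins. The 10 genes, out of 55291 listed, were picked by name: the dismutases Sod1 and Sod2, the catalase Cat, the glutathione peroxidases Gpx1 and Gpx4, the peroxiredoxins Prdx3 and Prdx5, the thioredoxin Txn2, its reductase Txnrd2 and the glutaredoxin Glrx2. RNA-seq libraries came from 3 groups of 2 libraries each. MEFs of the first group received vehicle, for a time that the labels do not give. Those of the second received MASM7, a mitofusin activator, at 1 μM for 6 h, and those of the third received MFI8, a mitofusin inhibitor, at 20 μM for 6 h. All were labelled wild type, and the 2 libraries of a group were independent biological replicates by the study's design text. Whether they came from separate isolates of MEFs was not stated, so p-values measure the spread between these libraries.

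Superoxide leaks from the respiratory chain and is turned into hydrogen peroxide by superoxide dismutases, one in the matrix and one mainly in the cytosol. Hydrogen peroxide is then removed by catalase in peroxisomes, by glutathione peroxidases and by peroxiredoxins, which in the matrix are kept reduced by a thioredoxin and a thioredoxin reductase fed by NADPH. Fibroblasts carry this set of enzymes without stimulation, while the transcription factor NRF2 raises a partly different set of genes under oxidative or electrophilic stress by way of the antioxidant response element.

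Sequence sets apart some of the 10 enzymes. Selenocysteine is written as TGA within the reading frame, a codon that otherwise ends translation, and the enzymes that carry it depend on the selenoprotein machinery. The principal coding sequences of GENCODE vM21 (GRCm38) held such a codon in 3 of the 10 genes, Gpx1, Gpx4 and Txnrd2, and in none of the other 7. These windows are shown because they mark the 3 members with this shared requirement, with the TGA codon in capitals and the flanking codons in lower case. The codon is number 47 of Gpx1 at chr9:108339451-108339453, number 73 of Gpx4 at chr10:80054737-80054739 and number 526 of Txnrd2 at chr16:18477772-18477774, each on the plus strand.
Gpx1: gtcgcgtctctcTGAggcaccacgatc
Gpx4: gtggcctcgcaaTGAggcaaaactgac
Txnrd2: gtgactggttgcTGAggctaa
In Txnrd2 the selenocysteine codon is the second to last before the stop codon.

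The core of the antioxidant response element, TGACNNNGC, was searched on both strands of RefSeq promoter windows (GRCm38.p6), each of 300 bases from 250 before to 50 after a start site. All 10 members had a window, and 1 of them, Sod1, held the core. Of 48 other antioxidant genes described further on, 36 had a window and 9 (25%) held it, beside 3781 of 27025 genes (14%) in all, or 12.4% of 32851 windows. The core of Sod1 lies at chr16:90220706-90220714 and begins 56 bases before the start site. It is printed with those of 5 of the 9 other genes, so that the cores can be compared, as 29 letters of the gene's strand with the core in capitals and 10 flanking bases on each side. The printed letters span chr16:90220696-90220724 for Sod1, chr10:82859104-82859132 for Txnrd1, chr2:152105542-152105570 for Srxn1, chr3:122245413-122245441 for Gclm, chr4:116685456-116685484 for Prdx1 and chr4:132510474-132510502 for Sesn2. The core of Sesn2 reads along its gene's strand, and those of the other genes printed read along the opposite strand. Matches of Slc25a3, Slc25a40, Ggct and Msrb2 are not printed.
Sod1: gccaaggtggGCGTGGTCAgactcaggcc
Txnrd1: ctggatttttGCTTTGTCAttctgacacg
Srxn1: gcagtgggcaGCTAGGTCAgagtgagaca
Gclm: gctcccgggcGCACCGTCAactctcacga
Prdx1: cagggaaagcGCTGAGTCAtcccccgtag
Sesn2: cgcagcgggcTGACAGAGCcgggcgagcg
The match of Prdx1 also overlaps the letters of an AP-1 site, TGAGTCA. A match describes the letters of the window, and the other 9 members have no such letters in theirs.

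The libraries held between 22791792 and 30677751 counts on genes, and 14290 genes, with all 10 members among them, had enough counts to be tested. Of 10 fibroblast markers, 9 were above 1 TPM in every library and Thy1 was not, with a summed level of 5570 to 7122 TPM. Markers of epithelial, endothelial and muscle cells summed to at most 2.21, 0.433 and 0.404 TPM. Of the blood markers, Ptprc, Adgre1 and Hba-a1 were under 1 TPM while Cd68 and Csf1r were not, and the list summed to 13.4 to 16.9 TPM. Of 4 neural markers, Sox2 was at 0 and Gfap under 1 TPM in every library, and with Tubb3 and Map2 the list summed to 52.6 to 54.9 TPM with vehicle, 66.9 to 67.7 with MASM7 and 67.0 to 74.4 with MFI8. Their part in the results below was not tested.

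The 10 enzymes spanned a wide range of transcript levels that hardly differed between libraries. TPM, a level per transcript length scaled to the library, allows genes to be compared. On this scale Gpx1, the abundant glutathione peroxidase of cytosol and mitochondria, came first with a mean of 549 TPM over the 6 libraries. The matrix peroxiredoxin Prdx3 followed with 372 TPM, then Gpx4, which reduces lipid hydroperoxides in membranes, with 274 TPM, and the copper-zinc dismutase Sod1 with 232 TPM. The mitochondrial thioredoxin Txn2 had 168 TPM and Prdx5, a peroxiredoxin of mitochondria, peroxisomes and cytosol, had 134 TPM. The peroxisomal catalase Cat had 66.7 TPM and the manganese dismutase of the matrix, Sod2, 27.8 TPM. The lowest were the mitochondrial thioredoxin reductase Txnrd2 with 20.4 TPM and the glutaredoxin Glrx2, which acts on glutathionylated proteins, with 8.51 TPM.

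All 9 neighbouring pairs in this order were separated, in that the lowest library of the higher gene lay above the highest library of the lower gene. The closest pair by ratio was Gpx4, at 258 TPM or more, and Sod1, at 236 TPM or less. Within a gene, the highest library exceeded the lowest by a factor of 1.04 for Sod1, 1.06 for Sod2 and at most 1.21, for Glrx2. Among the genes detected in at least 1 of the 6 libraries, Gpx1 stood between the 98.97th and 99.18th percentile of a library, and Glrx2 between the 64th and the 65.84th. Summed over the 10 genes, the level was 1860 and 1770 TPM with vehicle, 1854 and 1892 with MASM7, then 1915 and 1819 with MFI8. The sum of the second vehicle library was the lowest, and the groups overlapped.

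The order between genes depended on the length used. The deposited TPM fit the combined length of all exons of a gene in GENCODE vM21, which for Sod1 is 3970 bases although its principal transcript has 641. Rescaled to the principal transcript, a choice made after the values were seen, Sod1 moved from the fourth to the first place with 1437 TPM. Gpx1 then had 738, Gpx4 492, Prdx3 372, Txn2 345 and Prdx5 227 TPM. Prdx3 and Txn2 overlapped on this scale, between 355 and 389 and between 331 and 373 TPM. The 4 lowest kept their order with 66.7 TPM for Cat, 47.4 for Sod2, 31.2 for Txnrd2 and 22.4 for Glrx2. Levels between groups within a gene do not depend on this choice.

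**Figure D1:**
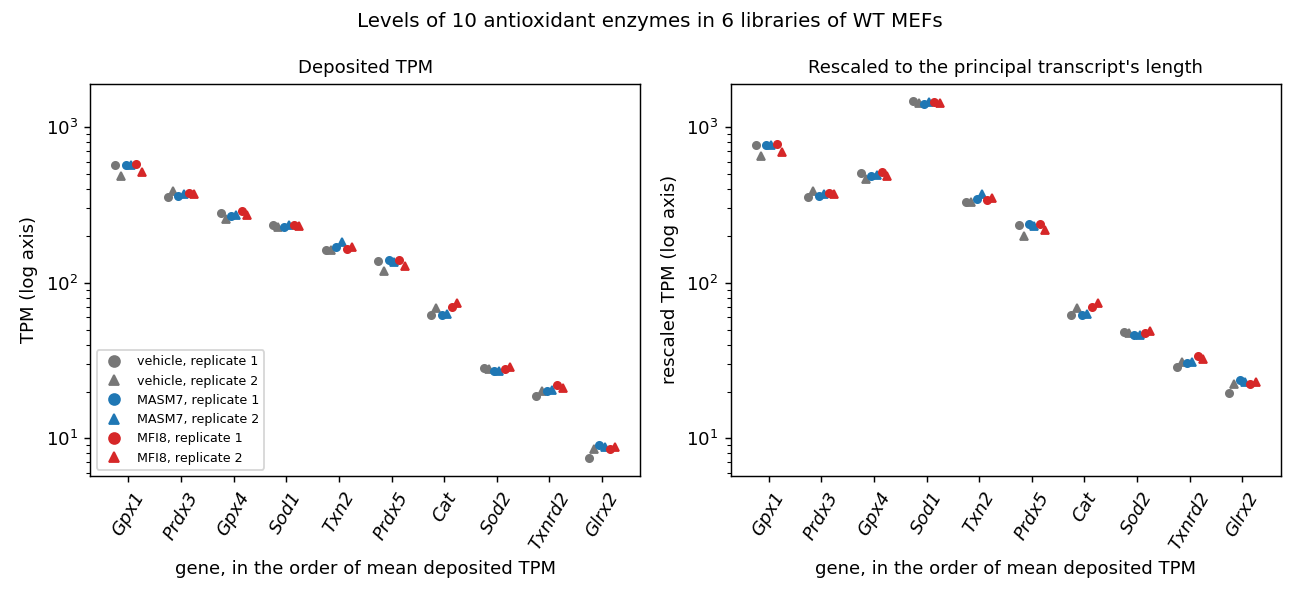
TPM of each of the 10 enzymes (x axis) in the 6 libraries, on log axes, as deposited on the left and rescaled to the length of the principal transcript on the right. Colours stand for groups and symbols for replicates. The 6 libraries of a gene lie close together beside the gaps between genes, and Sod1 moves from 232 TPM to 1437 rescaled TPM between the panels.

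The first comparison asked whether inhibition of mitofusins with MFI8 altered these transcripts. None of the 10 was called: the quasi-likelihood test in edgeR, with p-values adjusted by the Benjamini-Hochberg method over all genes tested, gave adjusted p-values between 0.608 and 0.954, over a background of 0% of the 14290 genes called. At an unadjusted p under 0.05, 0 of the 10 and 9.86% of all genes tested differed. DESeq2 and limma also called 0 of the 10. Changes ran from a log2 fold change of -0.03 for Sod1 to 0.13 for Txnrd2, with standard errors of 0.051 to 0.09. Of the 10, 7 lay above 0 and 3 below, with a median of 0.024 beside 0.0027 over all genes. With so few libraries, the smallest two-sided p of an exact permutation test is 0.333.

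The second comparison asked the same of activation of mitofusins with MASM7. Again 0 of the 10 and 0% of all genes were called by edgeR, with adjusted p-values of 0.48 to 0.983 for the members, and DESeq2 and limma called 0 of the 10. At an unadjusted p under 0.05 in edgeR, 1 of the 10, Txn2, and 10.2% of all genes differed. Changes ran from a log2 fold change of -0.06 for Cat to 0.18 for Glrx2, with a median of 0.051 beside 6.7e-04 over all genes. The comparison of MFI8 with MASM7, which were given at different concentrations, also called 0 of the 10 and 0% of all genes in edgeR, and 0 of the 10 in DESeq2 and limma. There 1 member, Cat, and 7.18% of all genes had an unadjusted p under 0.05. Both comparisons with vehicle share the same 2 vehicle libraries. In bulk libraries, fewer cells with a transcript and less of it per cell cannot be told apart.

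The dismutases remove superoxide. Sod1 lies at chr16:90220754-90226329 on the plus strand of GRCm38, with 5 exons in its principal transcript, and Sod2 at chr17:13006846-13040063 on the plus strand, also with 5. Sod1 had 266 and 256 CPM (counts scaled to the library total with TMM factors, for comparing libraries within a gene) with vehicle, 258 and 268 with MASM7, then 257 and 254 with MFI8. Vehicle overlapped with both treated groups, and the MFI8 libraries lay below both MASM7 libraries. The log2 fold change of Sod1 was 0.01 ± 0.051 (SE) with MASM7 and -0.03 ± 0.051 with MFI8. Sod2 had 80.2 and 78.4 CPM with vehicle, 77.5 and 77.4 with MASM7, then 77.2 and 79.6 with MFI8. Both MASM7 libraries were below both vehicle libraries, by a log2 fold change of -0.03 ± 0.055, while the MFI8 libraries overlapped with vehicle (-0.02 ± 0.055). Of all changes among the members, those of the dismutases had the narrowest errors together with Txn2 and Prdx3.

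Cat, Gpx1 and Gpx4 remove hydrogen peroxide or lipid hydroperoxides. Cat lies at chr2:103453849-103485160 on the minus strand with 13 exons, Gpx1 at chr9:108338903-108340343 on the plus strand with 2 and Gpx4 at chr10:80047166-80056439 on the plus strand with 7. Cat had 46.1 and 50.9 CPM with vehicle, 46.4 and 46.9 with MASM7, then 50.5 and 54.0 with MFI8. The second vehicle library lay within the range of the MFI8 libraries, so that these groups overlapped in CPM, whereas in TPM vehicle reached 69.3 and MFI8 began at 69.6. The log2 fold change was 0.11 ± 0.071 with MFI8 and -0.06 ± 0.071 with MASM7. Gpx1 had 233.8 and 197 CPM with vehicle, 234.2 and 237 with MASM7, then 233 and 205 with MFI8. The second library was the lower with both vehicle and MFI8, and the other 4 libraries lay between 233 and 237 CPM. The log2 fold change of Gpx1 was 0.13 ± 0.084 with MASM7 and 0.02 ± 0.084 with MFI8. Gpx4 showed a smaller spread of the same shape, with 139 and 125 CPM with vehicle, 133 and 136 with MASM7, then 137 and 129.7 with MFI8. All 3 groups overlapped for Gpx4, and its log2 fold changes were 0.03 and 0.02.

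The peroxiredoxins Prdx3 and Prdx5 reduce peroxides through a reactive cysteine. Both are on the minus strand of chromosome 19, Prdx3 at chr19:60864051-60874556 with 7 exons and Prdx5 at chr19:6906697-6910106 with 6. Prdx3 had 149 and 162 CPM with vehicle, 152 and 158 with MASM7, then 155 and 153 with MFI8. The vehicle libraries were the lowest and the highest of the 6, with the other groups between them, and the log2 fold changes were -0.005 ± 0.057 with MASM7 and -0.013 ± 0.057 with MFI8. Prdx5 had 83.9 and 71.3 CPM with vehicle, 85.4 and 83.3 with MASM7, then 83.6 and 76.5 with MFI8. As for Gpx1, the second vehicle library was the lowest, and the groups overlapped. Its log2 fold changes were 0.12 ± 0.08 with MASM7 and 0.04 ± 0.081 with MFI8. Prdx5 shares 409 exon bases with Trmt112 on the opposite strand, and the strand setting of the counting is not given in the sources used here, so reads over these bases cannot be told apart. A pseudogene named Gpx4-ps2 is annotated for Gpx4, and its reads could be split with it.

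The mitochondrial thioredoxin system, Txn2 and Txnrd2, returns electrons from NADPH to the matrix peroxiredoxins. Txn2 lies at chr15:77915047-77929006 on the minus strand with 3 exons and Txnrd2 at chr16:18426384-18479073 on the plus strand with 17. Txn2 had 194 and 191 CPM with vehicle, 202 and 219 with MASM7, then 194 and 198 with MFI8. Both MASM7 libraries lay above all 4 others in CPM, while in TPM the second MFI8 library, at 169, passed the first MASM7 library, at 168.6. The MASM7 libraries had a log2 fold change of 0.13 ± 0.055 against vehicle, an unadjusted p of 0.039 and an adjusted p of 0.48 (edgeR). The change with MFI8 was 0.03 ± 0.055. Txnrd2 had 23.4 and 24.8 CPM with vehicle, 25.1 and 25.7 with MASM7, then 27.0 and 25.9 with MFI8. The groups did not overlap in CPM, in the order vehicle, MASM7 and MFI8, but on the TPM scale vehicle reached 20.1 and MASM7 began at 20.02. The log2 fold change of Txnrd2 was 0.13 ± 0.079 with MFI8, for an adjusted p of 0.608, and 0.07 ± 0.079 with MASM7, for an adjusted p of 0.752 (edgeR).

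Glrx2, the mitochondrial glutaredoxin, had the lowest counts of the 10, between 424 and 674 in a library. It lies at chr1:143716338-143749676 on the plus strand, with 4 exons. It had 18.6 and 21.0 CPM with vehicle, 22.6 and 22.1 with MASM7, then 20.7 and 21.4 with MFI8. The first vehicle library was the lowest of the 6 and the MASM7 libraries were the highest. The log2 fold change was 0.18 ± 0.089 with MASM7, for an adjusted p of 0.523, and 0.09 ± 0.09 with MFI8, for an adjusted p of 0.775 (edgeR).

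**Figure D2:**
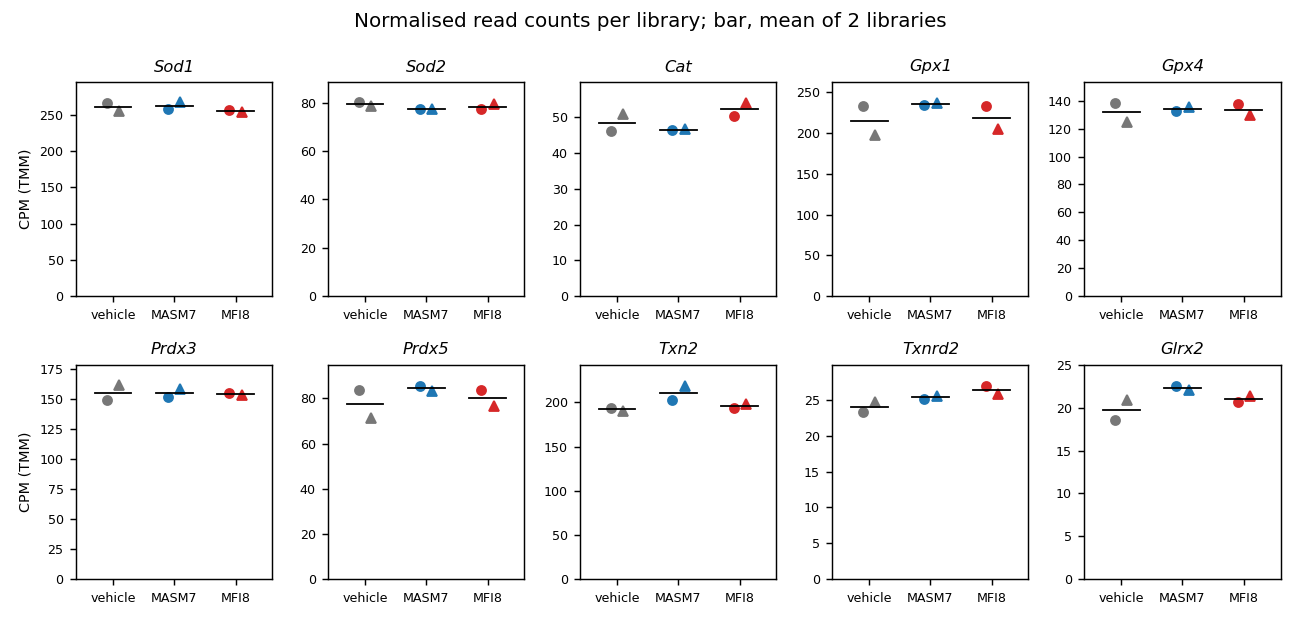
Normalised read counts (CPM with TMM factors, y axis from 0) of each enzyme in the vehicle, MASM7 and MFI8 libraries. Circles are replicate 1, triangles replicate 2 and bars the mean of the 2 libraries. The vehicle libraries of Gpx1 stand at 233.8 and 197 CPM, further apart than the means of any 2 groups.

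With 2 libraries a group, many genes separate between groups, so members that did so are given beside the share over all genes tested. Both MFI8 libraries lay above both vehicle libraries in CPM for 1 of 10 members, Txnrd2, beside 20.9% of all genes, and below them for 0 of 10, beside 19.3%. Both MASM7 libraries lay above vehicle for 4 of 10 members, Gpx1, Txn2, Txnrd2 and Glrx2, beside 21.2% of all genes, and below for 1 of 10, Sod2, beside 21.6%. For Gpx1 the margin was that between 233.8 and 234.2 CPM, and in TPM its groups overlapped. MFI8 lay above MASM7 for 2 members, Cat and Txnrd2, beside 19.6% of all genes, and below for 4, Sod1, Gpx1, Txn2 and Glrx2, also beside 19.6%. These counts depended on the scale. In TPM, MFI8 lay above vehicle for 3 members, Cat, Txn2 and Txnrd2, beside 26.7% of all genes, and below for 0, beside 14%. MASM7 lay above vehicle for 2, Txn2 and Glrx2, beside 18.5%, and below for 1, Sod2, beside 24.2%. MFI8 lay above MASM7 for 3, Sod2, Cat and Txnrd2, beside 29.8%, and below for 1, Glrx2, beside 11.1%.

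The gap between replicates exceeded most changes. It was widest within vehicle for 8 of the 10 members, at a log2 difference of -0.25 for Gpx1, -0.23 for Prdx5, 0.18 for Glrx2, -0.15 for Gpx4 and 0.14 for Cat from the first library to the second. The wider gap of the 2 groups compared was larger than the log2 fold change with MFI8 for 9 of 10, the exception being Txnrd2, and larger than that with MASM7 for 7 of 10, the exceptions being Sod2, Txn2 and Glrx2. Between MFI8 and MASM7 it was larger for 8 of 10, with Cat and Glrx2 as exceptions. These counts were not made over all genes, so whether they are particular to the members is not known. The gaps were set against the changes without regard to the replicate number, although over all genes they correlated between groups (Pearson's r of 0.288 to 0.313).

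How large a change these libraries leave room for can be read from the 95% confidence intervals of the edgeR fit. With MFI8 all 10 intervals held 0. The highest bound was a rise of 1.24-fold, for Txnrd2, and the lowest a 1.12-fold fall, for Gpx1. With MASM7, 9 of 10 held 0, the interval of Txn2 running from 0.01 to 0.25 on the log2 scale. The bounds reached a rise of 1.3-fold for Glrx2 and a 1.16-fold fall for Cat. With the replicate number as a term, 6 of 10 held 0 with MASM7, those of Gpx1, Prdx5, Txn2 and Glrx2 lying above it. That fit called 3.88% of all genes with MASM7 at an adjusted p under 0.05, beside 0% without the term. The share of all genes whose interval left out 0 in that fit is not given here, so the count is not read as particular to the members. The intervals are for single genes and were not widened for the number of genes. The median size of a change was 0.028 for the members with MFI8, beside 0.101 for all genes and 0.068 for the 7397 genes at or above the mean CPM of Glrx2, the member with the lowest. With MASM7 it was 0.066, beside 0.105 and 0.077. Between MFI8 and MASM7 it was 0.068, below the 0.0895 of all genes and above the 0.061 of the genes at those levels.

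**Figure D3:**
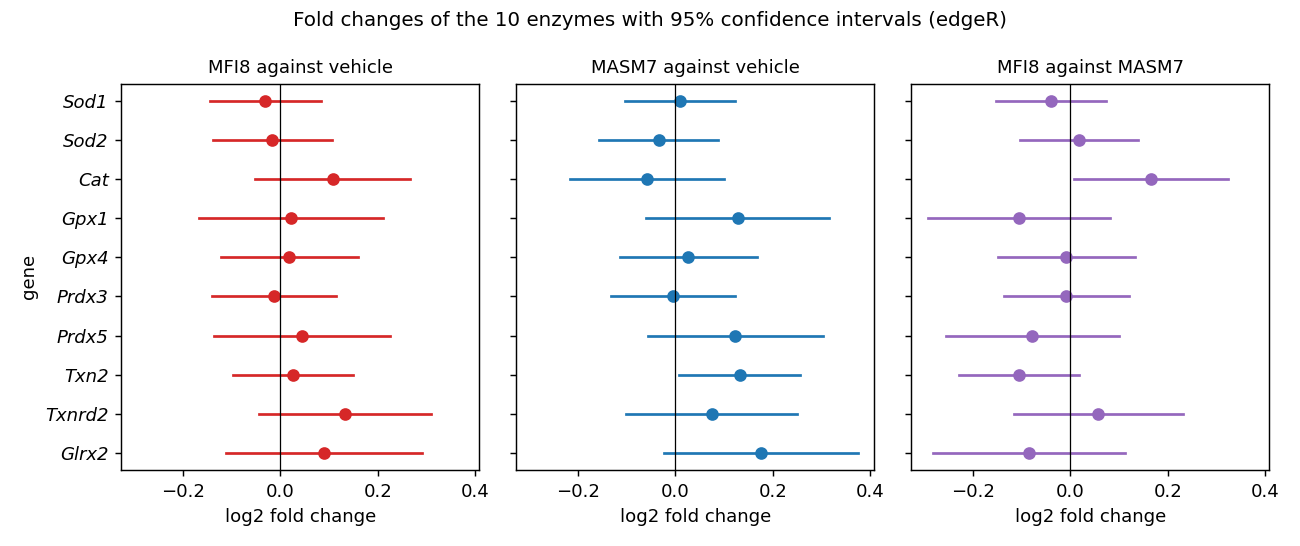
Log2 fold change (points) and 95% confidence interval (lines) of each enzyme in the 3 comparisons, from the edgeR fit of all 6 libraries. All intervals stay between -0.29 and 0.37, and the line at 0 lies inside all but those of Txn2 with MASM7 and Cat between MFI8 and MASM7.

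Set side by side at their different concentrations, 20 μM MFI8 and 1 μM MASM7 gave levels whose largest difference among the members was that of Cat, higher with MFI8 in both libraries by a log2 fold change of 0.17 ± 0.071, with an interval from 0.01 to 0.32, an unadjusted p of 0.041 and an adjusted p of 0.668 (edgeR). Txn2 was lower with MFI8 by -0.11 ± 0.055 and Gpx1 by -0.11 ± 0.084, with intervals from -0.23 to 0.02 and from -0.29 to 0.08. The other 7 differed by a log2 fold change between -0.09 and 0.06. A difference of up to 1.25-fold upward or 1.23-fold downward lay within the interval of at least 1 of the 10.

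The 3 selenocysteine enzymes were also compared with each other. With MFI8 the log2 fold changes were 0.02 for Gpx1, 0.02 for Gpx4 and 0.13 for Txnrd2, and with MASM7 they were 0.13, 0.03 and 0.07. None was called, and in the fit without a replicate term each of the 6 values is above 0 with an interval that holds 0. With that term, the interval of Gpx1 with MASM7 ran from 0.03 to 0.24. Without the second vehicle library, Gpx1 and Gpx4 were -0.096 and -0.054 with MFI8, and Gpx4 was -0.045 with MASM7. Gpx1 with MASM7 and Txnrd2 with either compound stayed above 0.

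Ratios of 2 enzymes within a library do not depend on the scaling between libraries. The ratio of Sod2 to Sod1 TPM, matrix against cytosolic dismutase, was 0.119 and 0.122 with vehicle, 0.119 and 0.115 with MASM7, then 0.119 and 0.124 with MFI8. It stayed within 0.115 and 0.124, with the MASM7 libraries just below those of vehicle and the MFI8 libraries around them. The ratio of Gpx4 to Gpx1 was 0.496 and 0.53 with vehicle, 0.474 and 0.479 with MASM7, then 0.493 and 0.529 with MFI8. Both MASM7 libraries were below the other 4. The ratio of Prdx3 to Prdx5 was 2.58 and 3.28 with vehicle, 2.57 and 2.75 with MASM7, then 2.69 and 2.9 with MFI8, with all 3 groups overlapping. The ratio of Txnrd2 to Txn2, reductase against its substrate, was 0.115 and 0.124 with vehicle, 0.119 and 0.112 with MASM7, then 0.133 and 0.125 with MFI8. Both MFI8 libraries were above the other 4. The ratio of Cat to Gpx1 was 0.109 and 0.142 with vehicle, 0.109 in both MASM7 libraries, then 0.12 and 0.145 with MFI8, where MFI8 overlapped with vehicle but not with MASM7. The ratios are given as values and were not tested.

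**Figure D4:**
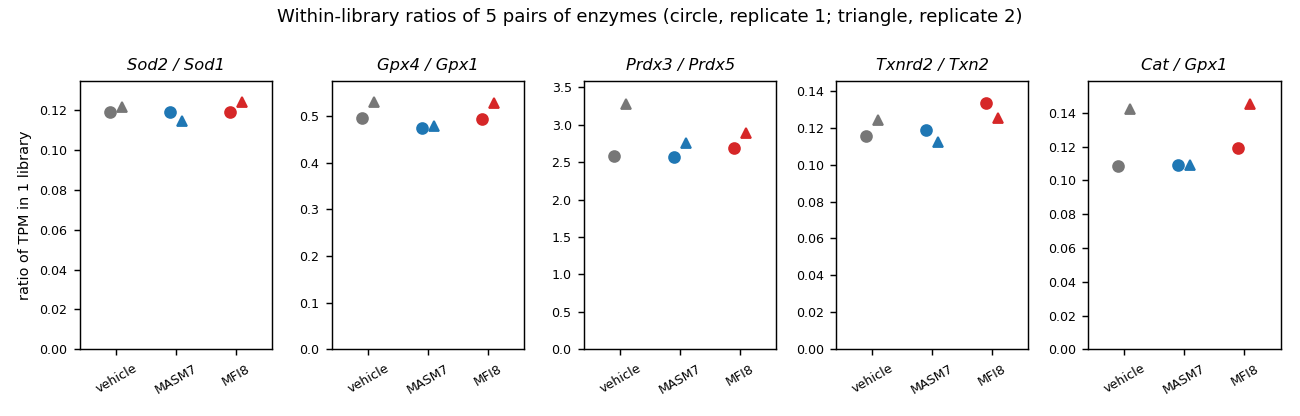
Ratio of the TPM of 2 enzymes in each library (y axes from 0), for 5 pairs. Circles are replicate 1 and triangles replicate 2. The MASM7 libraries of Gpx4 to Gpx1, at 0.474 and 0.479, lie below the 4 others, and the MFI8 libraries of Txnrd2 to Txn2, at 0.133 and 0.125, lie above them.

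The other antioxidant genes were described by 7 lists of 48 genes in all, of which 45 could be tested. The glutathione peroxidases Gpx3 and Gpx7 had at most 1 count in a library and the transferase Ggt5 had 0. As for the 10 enzymes, edgeR called 0 of the 45 in each comparison, and DESeq2 and limma without a replicate term also called 0. With the replicate number as a term, edgeR called 4 of the 45 with MFI8 (Gclm, Nadk2, Sesn2 and Txnrd1), beside 5.04% of all genes. It called 4 with MASM7 (Sesn2, Sesn3 and Slc25a39 among them), beside 3.88%, and 3 between the compounds (Gclc, Gclm and Glrx5), beside 3.07%. Adjusted p-values below are those without this term unless it is named. At an unadjusted p under 0.05 in edgeR, 4 were higher and 2 lower with MFI8 (13.3% of the 45, beside 9.86% of all genes), and 3 were higher and 4 lower with MASM7 (15.6%, beside 10.2%). Between MFI8 and MASM7, 5 were higher and 1 lower with MFI8 (13.3%, beside 7.18%). The median log2 fold change of the list was -0.01 with MFI8 and 0.01 with MASM7, and its median size was 0.113 and 0.067.

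Among the 10 cytosolic and nuclear thiol peroxidases and reductases, 2 had an unadjusted p under 0.05 with MFI8. Txnrd1, the cytosolic counterpart of Txnrd2 and a known NRF2 target, had 204 and 205 TPM with vehicle, 210 and 205 with MASM7, then 231 and 243 with MFI8. Both MFI8 libraries lay above the other 4 in TPM, where MFI8 lay above vehicle for 26.7% of all genes and above MASM7 for 29.8%. The log2 fold change with MFI8 was 0.18 ± 0.05 with an adjusted p of 0.349 (edgeR). Between MFI8 and MASM7 it was 0.15 ± 0.049. Srxn1, which repairs overoxidised peroxiredoxins, had a log2 fold change of 0.13 ± 0.057 with MFI8. Prdx1, the abundant cytosolic peroxiredoxin, had -0.15 ± 0.048 with MASM7, the 1 gene of this list with an unadjusted p under 0.05 there, and -0.1 ± 0.048 with MFI8.

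Of the 5 tested genes for glutathione synthesis and reduction, 0 had an unadjusted p under 0.05 against vehicle (edgeR), and 4 had values above 0 with MFI8. Gclc and Gclm, the subunits of the rate-limiting enzyme of glutathione synthesis, had log2 fold changes of 0.13 ± 0.061 and 0.17 ± 0.082 with MFI8 and -0.07 ± 0.061 and -0.07 ± 0.082 with MASM7. Between MFI8 and MASM7 both had an unadjusted p under 0.05, at 0.21 ± 0.06 and 0.24 ± 0.081, with adjusted p-values of 0.544 and 0.603, or 0.0355 and 0.00305 with the replicate number as a term (edgeR). Of 8 genes for mitochondrial NADPH, glutathione import and iron-sulfur partners, 1 was lower with MFI8 at an unadjusted p under 0.05, the mitochondrial NAD kinase Nadk2 (-0.2 ± 0.06). With MASM7, 4 of the 8 passed it. Among them were the glutathione importer Slc25a39 at 0.16 ± 0.059 and, below 0, the NADP-dependent malic enzyme Me3 at -0.87 ± 0.32, which had 16 to 29 counts in a library, and Nadk2 at -0.15 ± 0.059.

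Of 7 genes for selenoprotein synthesis, on which Gpx1, Gpx4 and Txnrd2 depend, 1 had an unadjusted p under 0.05 with MFI8 and 0 with MASM7 (edgeR). Secisbp2, which binds the selenocysteine insertion element, had a log2 fold change of 0.22 ± 0.079 with MFI8. The median of the list was 0.02 with MFI8 and 0.07 with MASM7. Of 7 methionine sulfoxide reductases and sestrins, the stress-responsive sestrin Sesn2 was the 1 gene past this threshold with either compound, at 0.48 ± 0.13 with MFI8 and 0.33 ± 0.13 with MASM7, with adjusted p-values of 0.357 and 0.477 (edgeR). It had 26.0 and 31.0 TPM with vehicle, 32.6 and 38.4 with MASM7, then 35.2 and 45.8 with MFI8. All 4 treated libraries were above both vehicle libraries on this scale. Over all genes in TPM, MFI8 lay above vehicle for 26.7% and MASM7 above vehicle for 18.5%.

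Of 5 genes for copper delivery and peroxisomal import, Ccs, the copper chaperone of Sod1, had 0.12 ± 0.065 with MFI8 and 0.13 ± 0.065 with MASM7. The peroxisomal docking protein Pex14 had 0.08 ± 0.067 and 0.2 ± 0.066. Pex14 was the 1 gene of this list with an unadjusted p under 0.05 with MASM7, and none passed it with MFI8. Of the 3 tested extracellular and ER enzymes, all had values below 0 with MFI8, and the ER peroxidase Gpx8, at -0.18 ± 0.071, was the 1 with an unadjusted p under 0.05 there and none passed it with MASM7.

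**Figure D5:**
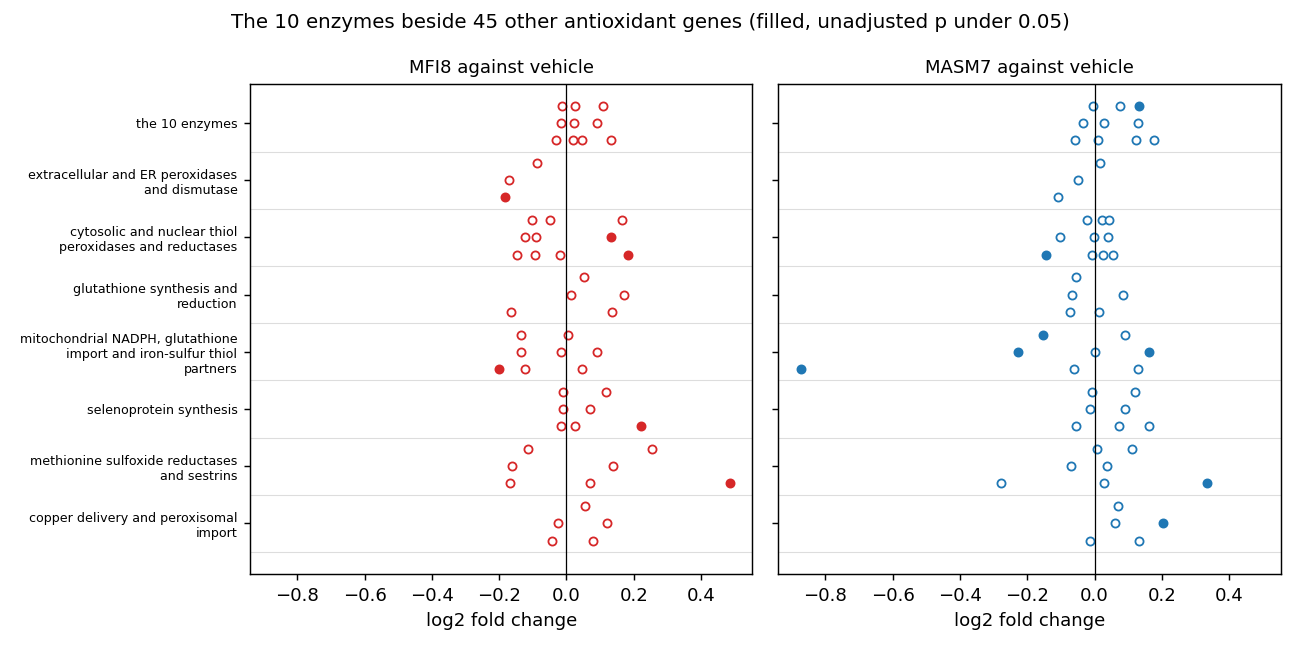
Log2 fold changes (x axis) of the 10 enzymes and of the 45 tested genes of 7 other antioxidant lists (rows, points spread vertically for legibility) with MFI8 and with MASM7 against vehicle. Filled points have an unadjusted p under 0.05 in edgeR. The 10 enzymes lie between -0.06 and 0.18 in both panels, while Sesn2 reaches 0.48 with MFI8 and Me3 -0.87 with MASM7.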

How the data were processed

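RNA-seq of polyA RNA from WT MEFs was used, with 2 libraries each for vehicle, MASM7 and MFI8, grouped by their labels; concentrations and times came from the study's text. Per the study's methods, the authors used Trimmomatic for trimming, STAR for alignment to GRCm38 and featureCounts for counting over exons, and the deposited values are raw counts for each gene. They also deposited TPM, and counts divided by DESeq2 size factors, which were not used. The annotation and strand setting are not given in the sources used here, but the deposited TPM equalled counts over the merged exon lengths of GENCODE vM21 within 1% for 98.5% of genes above 400 counts and for all 10 members. Library totals were 22791792 to 30677751 counts.

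Raw counts of all 6 libraries were fitted in edgeR 4.0.16 (R 4.3.3) with TMM, filterByExpr (14290 of 55291 genes), 1 coefficient per group and a quasi-likelihood test, adjusted by Benjamini-Hochberg over all genes tested at 0.05. The standard error was taken as the absolute log2 fold change over the square root of F, with 95% intervals from the t distribution. Levels between genes used TPM, and levels between libraries CPM with TMM factors. Alternatives were DESeq2 1.42.0, limma 3.58.1 on log2(TPM + 1) and log2(TPM + 0.1), other scalings and filters, the 2 groups alone, a replicate block and leaving out each library. Every member is named whatever its values. From each other list the 2 genes with the smallest p in each direction against vehicle could be named. Some genes are not reported here. The members and lists were chosen with earlier results of these data known. Outlying libraries were not tested for, since groups of 2 are too small.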

Additional observations from a re-analysis of the deposited data

How the results depend on the processing

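Over 11 other settings, 0 of the 10 members were called in any of the 3 comparisons. DESeq2 with the replicate block gave no adjusted p for 3 members with MFI8 (Cat, Txnrd2 and Glrx2) and 5 with MASM7 (these and Sod2 and Prdx5), which could not be called there. The smallest adjusted p was 0.094 (Txn2 with MASM7, replicate block). Of 330 member log2 fold changes under these settings 308 kept their sign, and 22 changed it, all of a size of at most 0.036. On limma's log2(TPM + 1), log2(TPM + 0.1) and log2(TPM + 1) without a filter, in that order, Sod2 with MFI8 was 0.00948, 0.009777 and 0.00948, and Prdx3 with MFI8 0.01526, 0.0153 and 0.01526. Sod1 with MASM7 was -0.007414, -0.007443 and -0.007414, and between MFI8 and MASM7 the values were 0.003403, 0.003417 and 0.003403 for Sod1, 0.03478, 0.03489 and 0.03478 for Gpx4, and 0.03555, 0.03564 and 0.03555 for Prdx3. On this scale the median of all genes was 0.025 with MFI8 and 0.038 between the compounds. With library size alone, Sod1 with MASM7 was -0.001488, and between the compounds Gpx4 was 0.01307 and Prdx3 0.01334. Without the filter on low counts, Prdx3 with MASM7 was 0.0148. The causes were not tested.

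Leaving out 1 library at a time called 0 members. For the members that changed sign, the values with MFI8 ran from -0.059 to 7.702e-05 for Sod1, -0.039 to 0.007692 for Sod2, -0.096 to 0.152 for Gpx1, -0.054 to 0.096 for Gpx4, -0.066 to 0.046 for Prdx3 and -0.068 to 0.168 for Prdx5. With MASM7 they ran from -0.019 to 0.038 for Sod1, -0.127 to 0.016 for Cat, -0.045 to 0.103 for Gpx4 and -0.0604 to 0.054 for Prdx3. Between the compounds they ran from -0.005463 to 0.042 for Sod2, -0.048 to 0.033 for Gpx4 and -0.039 to 0.024 for Prdx3. Larger changes kept their sign but not their size. With MASM7, from leaving out the second to leaving out the first vehicle library, Gpx1 ran from 0.0101 to 0.256 and Prdx5 from 0.0097 to 0.244. From the first to the second, Glrx2 ran from 0.092 to 0.268 with MASM7 and 0.0089 to 0.183 with MFI8, Cat from 0.041 to 0.181 with MFI8, and Txnrd2 from 0.033 to 0.119 with MASM7. Txn2 with MASM7 ran from 0.074 without the second MASM7 library to 0.188 without the first. Between the compounds, Txn2 ran from -0.161 without the first MASM7 library to -0.048 without the second, and Gpx1 from -0.197 without the first MFI8 library to -0.0152 without the second. Where a group keeps 1 library, it is assumed to vary like the others.

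Of the 45 other antioxidant genes, 0 were called with MFI8, 0 with MASM7 and 0 between the compounds. Without the filter on low counts edgeR called 1 with MFI8 and 1 with MASM7, Sesn2 in both, as it called 256 and 127 of all genes. With the replicate block, the replicate number as a term, edgeR called 4 with MFI8 (Gclm, Nadk2, Sesn2 and Txnrd1), 4 with MASM7 (Sesn2, Sesn3 and Slc25a39 among them) and 3 between the compounds (Gclc, Gclm and Glrx5), of 720, 554 and 439 genes in all. With the block in DESeq2, 1 was called in each, Txnrd1, Prdx1 and Gclm, of 220, 205 and 106 genes in all. The labels do not say that a number marks a shared batch, and there are only 2 numbers. Differences between replicates 2 and 1 correlated across 14290 genes with Pearson's r of 0.313 between vehicle and MASM7, 0.3 between vehicle and MFI8 and 0.288 between MASM7 and MFI8. In edgeR the block changed no call among the 10 enzymes. With it, the 95% intervals of 10 held 0 with MFI8, 6 with MASM7 (not Gpx1, Prdx5, Txn2 and Glrx2) and 7 between the compounds (not Cat, Gpx1 and Txn2). The share of all genes whose interval left out 0 with the block is not given here, so these counts are not read as particular to the members.

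Each group had only 2 libraries. The order of levels between genes depends on the length used, and between the scales of TPM and CPM the log2 change of Sod1 with MFI8 moved to -0.031 and that of Sod2 to -0.017.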
